A study of Mus musculus with 9 samples.

Results

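Valemetostat, an inhibitor of both EZH1 and EZH2, was compared with its solvent control DMSO in stimulated CH12F3 cells. The comparison used the 6 libraries labelled with either agent, 3 with valemetostat and 3 with DMSO, out of 9 in the series. The other 3 libraries came from cells given tazemetostat and did not enter any value below. CH12F3 is a mouse B-lymphoma line that makes IgM and can switch to IgA in culture. The cells of both groups were Ligase4 KO, that is, they lacked the ligase that closes breaks in classical end joining. All cells had been stimulated for 24 h with TGF-β, IL-4 and anti-CD40. The DMSO group therefore differs from the valemetostat group in the inhibitor and shares the knockout and the cytokines. The labels give neither the dose of valemetostat, nor the length of exposure to it, nor the number of knockout clones. The stated aim of the series was to record how transcription changes after an EZH2 inhibitor. The labels do not say that the 3 libraries of a group came from separate cultures, so the spread that p-values rest on is that of these libraries and may be technical.

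EZH2 and its close relative EZH1 are alternative catalytic subunits of Polycomb repressive complex 2 (PRC2). With EED and SUZ12 they place methyl groups on lysine 27 of histone H3, a mark (H3K27me3) found over silent promoters that are often rich in CG dinucleotides. EZH2 dominates in dividing germinal centre B cells, and EZH1 is expressed in resting cells as well. Genes held by this mark can become active when the enzymes are blocked and the mark is diluted by division or removed by the demethylases KDM6A and KDM6B.

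Libraries held 34080504 to 46675110 counts, so 3 counts corresponded to 0.0643 to 0.088 CPM, the library-size unit used below after TMM scaling. Of 45361 gene identifiers 27028 were at 0 in all 6 libraries and 12276 passed the count filter. The first principal component of log2 CPM held 68.2% of the variance and separated the groups. Pearson's r of log2 CPM across genes, which are not replicates, was 0.9896 to 0.9913 within a group and 0.9647 to 0.9694 between groups. All 10 B cell markers passed the filter, among them Cd79a and Cd79b, and their summed level was 7540 to 8220 CPM with DMSO and 9010 to 9430 CPM with valemetostat. Markers of other lineages summed to 2 CPM or less for T and NK cells with DMSO (8 markers), to 30.3 to 33.4 CPM for myeloid cells (7 markers) and to 2.62 to 4.54 CPM for stromal and endothelial cells (7 markers). With valemetostat these sums were 1.93 to 2.68, 27.7 to 31.1 and 4.78 to 5.7 CPM. The 6 erythroid and megakaryocyte markers summed to 3.87 to 4.66 CPM with DMSO and 6.58 to 7.45 CPM with valemetostat, which do not overlap, and 2 of the 3 tested, Gata1 and Hba-a1, were called higher, while Hbb-bs and Pf4 were at 0. The part of such markers in the results below was not tested. Ncr1 and Cd14 were at 0 in every library, and most of the myeloid sum was Csf1r. In RNA from whole cultures, fewer cells that express a gene and less RNA per cell cannot be told apart. Lig4, the gene targeted by the knockout, had 30, 39 and 29 counts with DMSO and 46, 31 and 33 with valemetostat. The labels do not say which part of Lig4 was deleted, so its counts are no check of the knockout.

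A large set of genes with almost no reads in DMSO rose with valemetostat, and large falls were fewer and smaller. With edgeR's quasi-likelihood F test, 4752 of 12276 genes (38.7%) had a Benjamini-Hochberg adjusted p under 0.05, the rule for a call. Of these 2502 were higher (20.4% of genes tested) and 2250 were lower (18.3%). Most calls were small, with a median absolute log2 change of 0.334 and 84.3% of calls under 2-fold. At 2-fold or more the directions parted, with 609 genes higher (4.96%) and 135 lower (1.1%), so that 81.9% of the large changes were rises. At 4-fold or more 292 genes were higher and 43 lower, and at 16-fold or more 91 were higher and 1 lower. The 3 valemetostat libraries did not overlap the 3 DMSO libraries for 5986 genes (48.8%), 3102 higher (25.3%) and 2884 lower (23.5%). Of the 609 genes that rose at least 2-fold, 389 were under 1 CPM in DMSO. Of these 389, 267 were below the level of the count filter in at least 1 DMSO library, so that they needed valemetostat libraries to pass it, and 122 met it in all 3 DMSO libraries. Of the 135 genes that fell at least 2-fold, 107 were under 1 CPM with valemetostat, and 74 of these were below the filter level in at least 1 valemetostat library. On the deposited log2(TPM + 1) values limma-trend called 2880 genes, 36.8% of them higher against 52.7% in the counts.

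**Figure D1:**
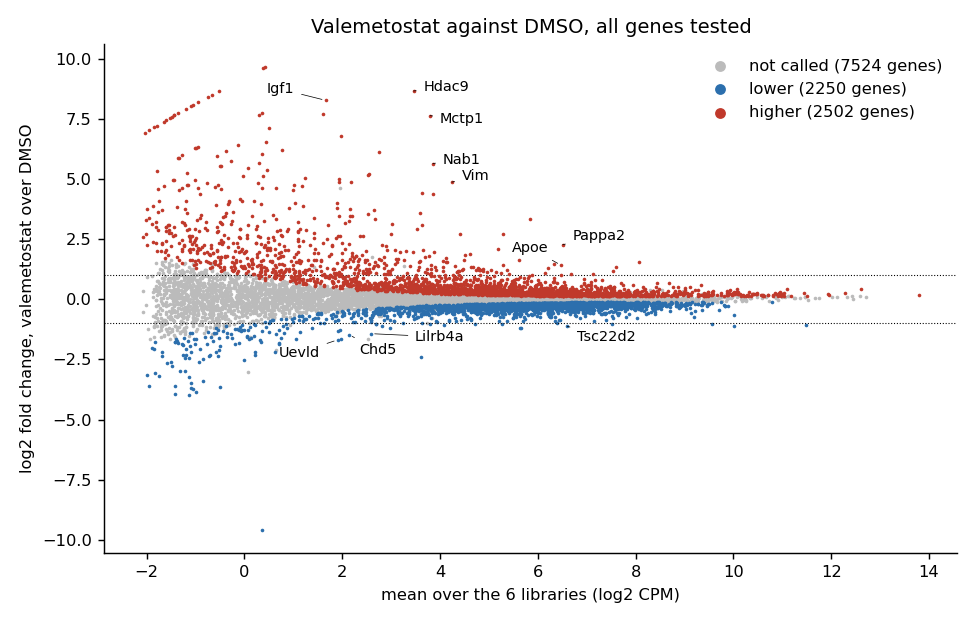
Log2 fold change of valemetostat over DMSO (vertical axis) against the mean level over the 6 libraries in log2 CPM (horizontal axis), 1 point per gene tested, n = 3 libraries a group. Dotted lines mark 2-fold; red points (2502) were called higher and blue points (2250) lower, and the fitted fold of genes with no counts in one group depends on the prior count. Large rises sit mostly at low mean level, and few blue points pass the lower dotted line.

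Large changes were more frequent at low level. Among genes with a mean under 0 log2 CPM, 229 rose and 80 fell by at least 2-fold. In the class from 0 to 3 log2 CPM 290 rose and 42 fell by that much, and from 3 to 6 log2 CPM 80 rose and 8 fell. Among the 3548 genes of at least 6 log2 CPM, 50.2% were called, but 10 rose and 5 fell by at least 2-fold. The largest rises by fold therefore belong to genes of low level, and the abundant genes are described separately.

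Hdac9, which encodes a class IIa histone deacetylase that binds MEF2 factors, had the largest fitted rise among genes with a mean of at least 1 log2 CPM. Reads numbered 1, 1 and 4 in DMSO and 825, 687 and 913 with valemetostat. Its level went from 0.0543 ± 0.0509 to 22.03 ± 2.56 CPM (SD, n = 3 each), a log2 change of 8.66 ± 0.25 (SE) with edgeR adjusted p = 8.8e-20. This error is smaller than the counting error of so few DMSO counts, as are those of Mctp1 and Dnah12 below. The other class IIa genes did not follow it: Hdac4, Hdac5 and Hdac7 had log2 differences of -0.08, 0.04 and -0.15, none of which passed the test. Of the MEF2 factors, Mef2c at -0.46, Mef2a at -0.25 and Mef2d at -0.20 were called lower, and Mef2b at 0.07 was not called. Mctp1, a calcium-binding membrane protein, had 3, 4 and 9 counts in DMSO and 1002, 1037 and 1007 with valemetostat, a log2 change of 7.63 ± 0.20. Dnah12, a heavy chain of the dynein that moves cilia, had 2, 2 and 4 counts in DMSO and 334, 244 and 286 with valemetostat, a log2 change of 6.77 ± 0.31. In DMSO all 3 genes had fewer than 10 reads per library, and with valemetostat more than 200.

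Nab1, a co-repressor that binds EGR transcription factors, was already detected in DMSO at 0.317, 0.492 and 0.960 CPM and was at 28.5, 31.0 and 25.9 CPM with valemetostat. The log2 change was 5.64 ± 0.20, with edgeR adjusted p = 7.59e-14. Its paralog Nab2 was at 7.63 and 9.09 CPM and was not called. Egr1 and Egr2, immediate early factors that NAB proteins restrain, were called lower, with Egr1 at 0.559 and 0.18 CPM and Egr2 at 10.2 and 8.15 CPM. Of 3 lower calls on their list, 1 remained without DMSO 2, without valemetostat 1 or with the replicate number as a term. On log2(TPM + 1) values 1 remained too (limma-trend). Selenop, a secreted selenium carrier, was at 0.317, 0.318 and 0.282 CPM in DMSO and 10.3, 11.8 and 12.4 CPM with valemetostat, a log2 change of 5.21 ± 0.21. Fam107a rose by 6.13 ± 0.31, Tcp11x2 by 5.17 ± 0.23 and Calcrl, the calcitonin receptor-like receptor, by 5.02 ± 0.52 on the log2 scale. Calcrl varied most among the valemetostat libraries, at 5.91, 4.31 and 3.46 CPM. On the length-scaled values the authors deposited, valemetostat cells held 11.9 TPM of Mctp1, 10.1 TPM of Csn3, 9.48 TPM of Nab1, 8.02 TPM of Hdac9 and 3.9 TPM of Igf1, against 114 TPM of Ezh2.

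**Figure D2:**
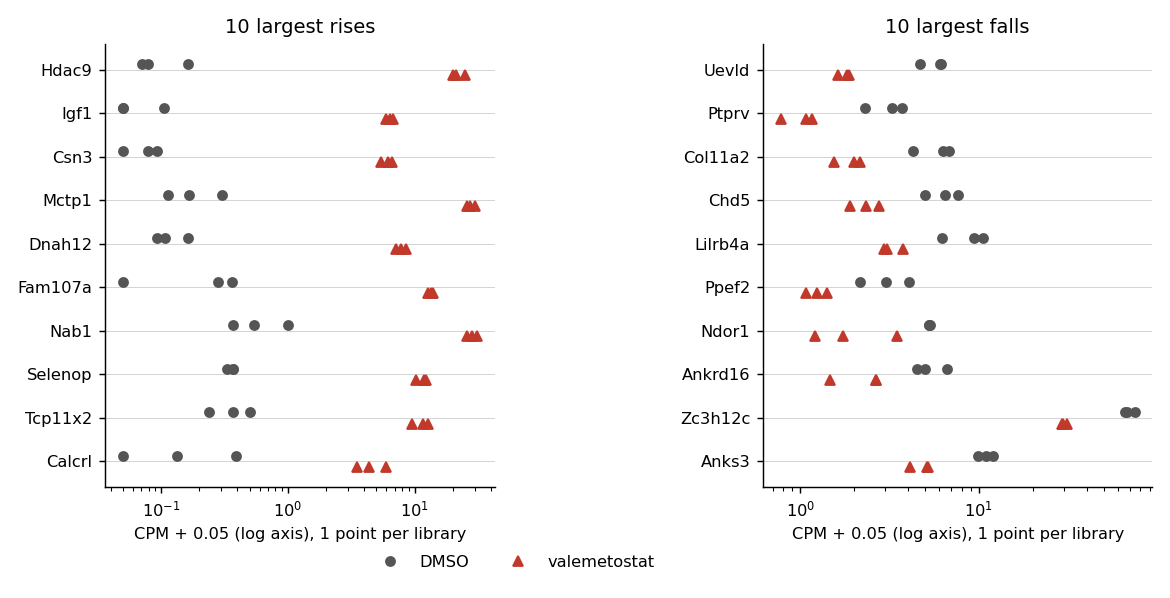
CPM plus 0.05 on a log axis for the 10 genes with the largest rise (left) and the 10 with the largest fall (right) among genes of at least 1 log2 CPM with the symbol of a studied gene. Each point is 1 library, grey circles for DMSO and red triangles for valemetostat, n = 3 each. The groups do not overlap for any of the 20 genes, which the choice of genes required, and the rises span about 2 decades where the falls stay within 1.

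A count that needs no model gave the same asymmetry. With at most 3 counts in each library of one group and at least 10 in each library of the other, 68 genes were switched on by valemetostat and 11 were switched off. Of the 68, 65 carry the symbol of a studied gene and 23 had 0 counts in all 3 DMSO libraries. Of these 68, 63 passed the count filter and all 63 were called higher, which the rule all but fixes. Of the 11 switched off only Lgals4, a galectin, and Apon, an apolipoprotein, carry such a symbol. Lgals4 was at 0.571, 0.897 and 0.706 CPM in DMSO and 0.0771, 0.0582 and 0.0818 CPM with valemetostat.

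Igf1, insulin-like growth factor 1, had 0, 0 and 2 counts in DMSO and 259, 204 and 231 with valemetostat. Against 2 counts in all, the ratio was 370 (95% exact counting interval 102 to 3060). The receptor gene Igf1r rose by 0.43 ± 0.09 on the log2 scale, from 19.8 to 26.6 CPM, and Igfbp2, which binds the factor outside cells, rose by 1.13 ± 0.10, from 12.7 to 27.8 CPM. Igf2r (8.32 and 8.36 CPM) and Igfbp4 (0.474 and 0.617 CPM) were not called. Pappa2, a protease that releases IGFs from binding proteins, was at 28.9, 35.8 and 29.6 CPM in DMSO and 142.9, 140.4 and 169.4 CPM with valemetostat. Its log2 change of 2.27 ± 0.09 was the largest rise among genes of at least 6 log2 CPM (edgeR adjusted p = 1.47e-10). On the list of Igf1 and growth factor genes, which does not hold Pappa2, 5 of 12 tested were called higher (41.7%, against 20.4% of all genes tested), 0 lower and 7 were not called. Igf1 itself is among these 5 and passed the count filter through its valemetostat libraries alone. Of the 22 genes listed, 5 were at 0 in all libraries and are not among the 12.

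The milk protein gene Csn3, kappa-casein, had 2, 1 and 0 counts in DMSO and 211, 211 and 241 with valemetostat, a ratio of 236 (80.3 to 1150). Csn2, beta-casein, had 3 DMSO counts in all and rose with a ratio of 34.8 (11.6 to 172). Cr2, the complement receptor CD21 of mature B cells, had 3, 0 and 0 counts in DMSO and 125, 80 and 85 with valemetostat, a ratio of 103 (34.9 to 503). Rgs21, a regulator of G protein signalling, had 0 counts in DMSO and 116, 110 and 65 with valemetostat, which is at least 103-fold higher when DMSO is set to 3 counts in all. Shroom3, an actin-binding shape regulator, also had no DMSO counts and was at least 100-fold higher by the same limit. Pknox2, a homeobox factor, Gpr141, an orphan receptor, and Map7d2, a microtubule-binding protein, had 2, 1 and 1 counts in DMSO and 94 to 110, 72 to 108 and 84 to 95 per library with valemetostat. Others of the 68 were Ido1 and Ido2, which break down tryptophan, the alcohol dehydrogenases Adh1 and Adh4, the lipid carrier Fabp4, the let-7 blocker Lin28b and the lysozyme gene Lyz2. Per library these 68 genes stayed at levels near 1 CPM in most cases, the highest being Igf1 at 6.3 CPM.

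Promoter sequence was a feature that the expression test did not use. RefSeq windows (build GRCm38.p6) from 250 bases before to 50 bases after an annotated start were matched by symbol. Of 12266 tested genes with a distinct name 9351 matched, with 11944 windows. The median window of all tested genes held 20 CG dinucleotides, and the median over all 32851 windows was 7. Genes switched on had a median of 6 CG (49 of 68 genes matched), genes that rose at least 2-fold from under 1 CPM had 8, and those that rose at least 2-fold from 1 CPM or more had 10. Genes that rose less than 2-fold had 19, and genes that fell less than 2-fold had 24. Genes that fell at least 2-fold had 11 (67 of 135 genes matched), with at least 15 CG in 42% of windows, against 35.3% and 41.7% for the 2-fold rises from under 1 CPM and from 1 CPM or more. Large changes in both directions thus had fewer CG than small ones. Low expression goes with few CG by itself, and the comparison at like level was added after these values were seen. Below a mean of 3 log2 CPM the median was 8 in genes that rose at least 2-fold and 13 in genes not called, and above it 12.5 and 22. Windows with at least 15 CG made up 36.2% of the first and 44.9% of the second class below 3 log2 CPM, and 46.2% and 75.2% above it. These shares describe windows and were not tested, and alternative starts of 1 gene share sequence.

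Both kinds of promoter occurred among the largest rises, as the 250 bases before the starts of Nab1 and Igf1 show, with every CG dinucleotide in capitals. Nab1 is shown as a CG-dense promoter and Igf1 as a CG-poor one, and both were picked after their values were seen. The Nab1 window (chr1:52500449-52500698, minus strand) holds 40 CG in the printed bases, and the Igf1 window (chr10:87860861-87861110, plus strand) holds 5.
Nab1: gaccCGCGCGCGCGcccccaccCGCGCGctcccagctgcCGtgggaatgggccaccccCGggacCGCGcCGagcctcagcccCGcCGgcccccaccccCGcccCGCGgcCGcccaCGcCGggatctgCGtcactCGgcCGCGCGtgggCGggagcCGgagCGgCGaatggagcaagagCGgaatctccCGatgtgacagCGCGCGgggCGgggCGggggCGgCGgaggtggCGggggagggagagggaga
Igf1: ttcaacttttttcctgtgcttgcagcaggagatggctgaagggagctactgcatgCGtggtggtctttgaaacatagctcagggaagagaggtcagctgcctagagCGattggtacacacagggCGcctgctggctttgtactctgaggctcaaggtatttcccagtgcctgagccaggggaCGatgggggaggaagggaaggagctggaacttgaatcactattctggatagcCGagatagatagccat

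Genes that rose at least 2-fold were often neighbours on the chromosome, a feature looked at after the calls were seen. In the gene order of the GENCODE M21 annotation, 133 of 606 such genes (21.9%) stood next to another tested gene that rose at least 2-fold, against 8.74% of the other 11644 tested genes. For falls of at least 2-fold the shares were 7.46% of 134 genes and 2.08% of the others. The rises formed 50 pairs, 5 runs of 3 genes, 3 runs of 4 and 1 run of 6. The run of 6 on chromosome 3 held Gbp5, Gbp7, Gbp3, Gbp2b and Gbp2, guanylate-binding proteins induced by interferon, next to Pdlim5. One run of 4 on chromosome 2 held Calcrl, Tfpi, Fam171b and Ctnnd1. In it Fam171b went from 0.924 ± 0.679 to 11.6 ± 1.997 CPM and Ctnnd1, p120 catenin, from 0.241 ± 0.12 to 3.81 ± 0.590 CPM (SD, n = 3 each). Tfpi, an inhibitor of coagulation, had 2 DMSO counts and a ratio of 45.9 (12.3 to 385). Another run of 4 on chromosome 1 held the troponin genes Tnni1 and Tnnt2 with Lad1 and Pkp1. The pairs included Csn2 with Csn3, Ido1 with Ido2, Adh1 with Adh4, Fabp4 with Fabp5 and Il7r with Capsl. Where such neighbours overlap or are near-identical copies, as among the Gbp genes, reads may be shared between them.

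Among genes of at least 6 log2 CPM the rises were moderate and the replicates tight. Tnni1, the slow skeletal muscle form of troponin I, was at 132, 135 and 142 CPM in DMSO and 395, 407 and 403 CPM with valemetostat, a log2 change of 1.56 ± 0.05 (edgeR adjusted p = 2.3e-19). Tnnt2, the cardiac troponin T gene, rose beside it from 16.3 ± 0.587 to 39.4 ± 2.51 CPM. Fabp5, a fatty acid-binding protein, went from 43.2 ± 1.64 to 118.7 ± 6.73 CPM, a log2 change of 1.46 ± 0.06. Apoe, the lipoprotein that carries cholesterol, was at 53.7, 42.3 and 48.7 CPM in DMSO and 117, 132 and 139 CPM with valemetostat, a log2 change of 1.42 ± 0.08. Lowest valemetostat values exceeded the highest DMSO values by more than 2-fold for each of these genes. Tnfsf15, a TNF family cytokine, rose by 1.30 ± 0.06, Lgals3bp, a secreted glycoprotein, by 1.15 ± 0.05 and Anxa5, a phospholipid-binding annexin, by 1.08 ± 0.06. Outside this level class Vim, the intermediate filament vimentin, went from 1.26 ± 0.0403 to 36.7 ± 4.83 CPM (SD, n = 3 each), a log2 change of 4.87 ± 0.13.

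The largest fall among studied genes of at least 1 log2 CPM was that of Uevld, at 5.98, 6.05 and 4.66 CPM in DMSO and 1.82, 1.57 and 1.77 CPM with valemetostat. Its log2 change was -1.69 ± 0.20 (edgeR adjusted p = 1.73e-07), and the groups did not overlap. Ptprv, a receptor tyrosine phosphatase, changed by -1.66 ± 0.29 and Col11a2, a fibrillar collagen chain, by -1.64 ± 0.21. Chd5, a chromatin remodeller, was at 7.59, 6.37 and 4.91 CPM in DMSO and 1.85, 2.27 and 2.70 CPM with valemetostat, a log2 change of -1.47 ± 0.20. On the deposited log2(TPM + 1) values Chd5 stood at -0.07 (limma-trend adjusted p = 0.913), so its fall rests on the counts, and the calls of Ptprv and Ankrd16 were lost there too (adjusted p = 0.126 and 0.0527). Lilrb4a, an inhibitory receptor with near-identical relatives, was at 9.35, 10.4 and 6.12 CPM in DMSO and 3.7, 2.997 and 2.89 CPM with valemetostat. Ndor1 is listed under 3 identifiers, of which 1 fell by 1.32 ± 0.28 on the log2 scale and the most abundant, at 21.97 and 18.9 CPM, was not called.

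Better measured were the falls of Zc3h12c and Tsc22d2. Zc3h12c, a CCCH zinc finger protein of the RNA-degrading Regnase family, was at 65.7, 74.4 and 67.2 CPM in DMSO and 31.1, 29.4 and 29.3 CPM with valemetostat, a log2 change of -1.21 ± 0.07 (edgeR adjusted p = 1.17e-13). Tsc22d2, a leucine zipper protein, went from 133 ± 7.36 to 61.0 ± 1.60 CPM, a log2 change of -1.13 ± 0.06. Cd36, a scavenger receptor for fatty acids, changed by -0.98 ± 0.06, from 111.0 to 56.5 CPM, and Mdn1, a giant ATPase of ribosome assembly, by -0.91 ± 0.06. Another 4 of the 8 largest falls above 6 log2 CPM, Gm28661, Gm13340, Gm28439 and Gm29216, are nuclear copies of mitochondrial sequence. A list of 8 such copies, chosen after their values were seen, summed to 9700 to 11700 CPM in DMSO and 7560 to 7780 CPM with valemetostat. The table has 0 rows for mitochondrially encoded genes, and reads of mitochondrial RNA and of these copies cannot be told apart here.

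The subunits of the targeted complex changed little at the RNA level. Of 12 tested PRC2 genes 4 were called lower (33.3%, against 18.3% of all genes tested) and 0 higher. Ezh2 was at 173, 171 and 180 CPM in DMSO and 171, 163 and 167 CPM with valemetostat, a log2 difference of -0.06 ± 0.05 that was not called (edgeR adjusted p = 0.3). The lowest DMSO value and the highest valemetostat value of Ezh2 nearly met. Ezh1 was at 18.2, 17.2 and 19.0 CPM in DMSO and 15.6, 18.9 and 17.3 CPM with valemetostat, which overlap (log2 difference -0.07 ± 0.09). On the length-scaled values Ezh2 exceeded Ezh1 in both groups, at 122 against 7.40 TPM in DMSO and 114 against 5.73 TPM with valemetostat. Eed was at 0.10 ± 0.05 and was not called, and Suz12 was called lower at -0.16 ± 0.05 (edgeR adjusted p = 0.0138). The Suz12 call was lost without DMSO 2 (adjusted p = 0.0879) or without valemetostat 2 (adjusted p = 0.0702). The other called members were the accessory subunits Mtf2 (-0.28), Phf19 (-0.21) and Lcor (-0.50), and Lcor did not pass on the deposited log2 scale (limma-trend adjusted p = 0.0577).

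In PRC1, the partner complex that marks histone H2A and binds H3K27me3 through its CBX subunits, 5 of 23 tested genes were called higher and 5 lower (21.7% each, near the 20.4% and 18.3% of all genes), and with an offset for transcript length and GC content 8 were called higher. Pcgf5 rose most, from 5.81, 7.24 and 5.48 CPM to 22.9, 19.4 and 21.2 CPM, a log2 change of 1.78 ± 0.12 (edgeR adjusted p = 3.47e-12). Bmi1, another PCGF subunit, rose from 69.3 ± 5.19 to 115 ± 6.44 CPM, a log2 change of 0.73 ± 0.06. Cbx7 at -0.41 and Phc3 at -0.43 were called lower, and Cbx8 at 0.33 and Phc1 at 0.37 higher. Mga was called lower at -0.32 but stood at 0.01 with an offset for transcript length and GC content (edgeR adjusted p = 0.875). The H3K27 demethylase gene Kdm6b fell from 41.8 ± 4.61 to 29.7 ± 4.66 CPM, a log2 change of -0.49 ± 0.10, and Kdm6a at -0.09 ± 0.06 was not called.

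Most tested interferon-stimulated genes were called higher with valemetostat. Of 43 genes on the list 29 passed the filter and 6 were at 0 in all libraries. Of the 29, 22 were called higher (75.9%, against 20.4% of all genes tested) and 2 lower, 10 rose at least 2-fold, and the median log2 difference was 0.68 against 0.01 over all genes. Ifih1, the RNA sensor MDA5, was at 0.0423, 0.318 and 0.367 CPM in DMSO and 6.58, 8.32 and 7.34 CPM with valemetostat, a log2 change of 5.02 ± 0.34. Oas1a, an enzyme that activates RNase L, was at 0.169, 0.145 and 0.169 CPM in DMSO and 3.96, 4.8 and 4.31 CPM with valemetostat, a log2 change of 4.72 ± 0.33. These 2 genes went from near 0 to moderate levels in all 3 libraries. Ddx58, the sensor RIG-I, rose by 1.34, Ifit2 by 1.53, Usp18, which removes ISG15 from proteins, by 2.03 and Irf7 by 0.91 on the log2 scale. Ifit1 had 3 DMSO counts in all and a ratio of 18.8 (6.11 to 94.3). Ifit1 and Oas1a were below the level of the count filter in every DMSO library, and Ifih1 was below it in DMSO 1. All of them passed it through their valemetostat libraries. Such entries raise the share called higher, and listed genes silent in both groups are not among the 29.

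Not all members moved up. Stat2, a transcription factor of the interferon response, was at 14.3, 13 and 13.9 CPM in DMSO and 9.43, 10.9 and 9.38 CPM with valemetostat, a log2 change of -0.47 ± 0.11. Irf9, which binds STAT2, rose by 0.38 on the log2 scale. The RNA-editing enzyme Adar was the second member called lower, at -0.16 ± 0.06, and Parp9, Dtx3l, Parp14, Eif2ak2 and Slfn2 were not called, at -0.01 to 0.24. Rises under 2-fold included Bst2, an antiviral tether, by 0.83 ± 0.07 from 29.9 CPM, and Isg15, a ubiquitin-like modifier, by 0.71 ± 0.16 from 3.71 CPM. The more abundant member Lgals3bp rose by 1.15 ± 0.05 from 114.6 CPM. With an offset for transcript length and GC content 22 of the 29 were again called higher, with a median of 0.60. On log2(TPM + 1) values 15 were called higher and 0 lower (limma-trend), with a median of 0.42. Without valemetostat 3 the numbers were 18 and 1. The number lower was also 1 without DMSO 2, valemetostat 1 or valemetostat 2 and with the replicate number as a term. Several of these genes have close copies, so reads of Oas, Ifit and Gbp members may be partly exchanged.

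The guanylate-binding proteins and related GTPases, which attack membranes of intracellular pathogens, were mostly higher. Of 13 tested, 8 were called higher (61.5%, against 20.4% of all genes tested) and 0 lower (against 18.3%). Of these 8, 6 rose at least 2-fold. On log2(TPM + 1) values 7 were called higher and 1 lower (limma-trend), and without valemetostat 1 the number higher was 6. Gbp2 was at 2.47, 2.23 and 2.51 CPM in DMSO and 12.0, 11.3 and 11.6 CPM with valemetostat, a log2 change of 2.27 ± 0.14. Gbp7 rose by 2.76 ± 0.27, Gbp5 by 2.62 ± 0.33 and Gbp3 by 1.56 ± 0.10. Gbp4 (17.2 and 16.6 CPM), Gbp8 (3.70 and 2.77 CPM) and Gbp10 (0.893 and 0.825 CPM) were not called, so the call was not shared by all members. Gbp2, Gbp3, Gbp5 and Gbp7 stand in the run of neighbours described above.

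**Figure D3:**
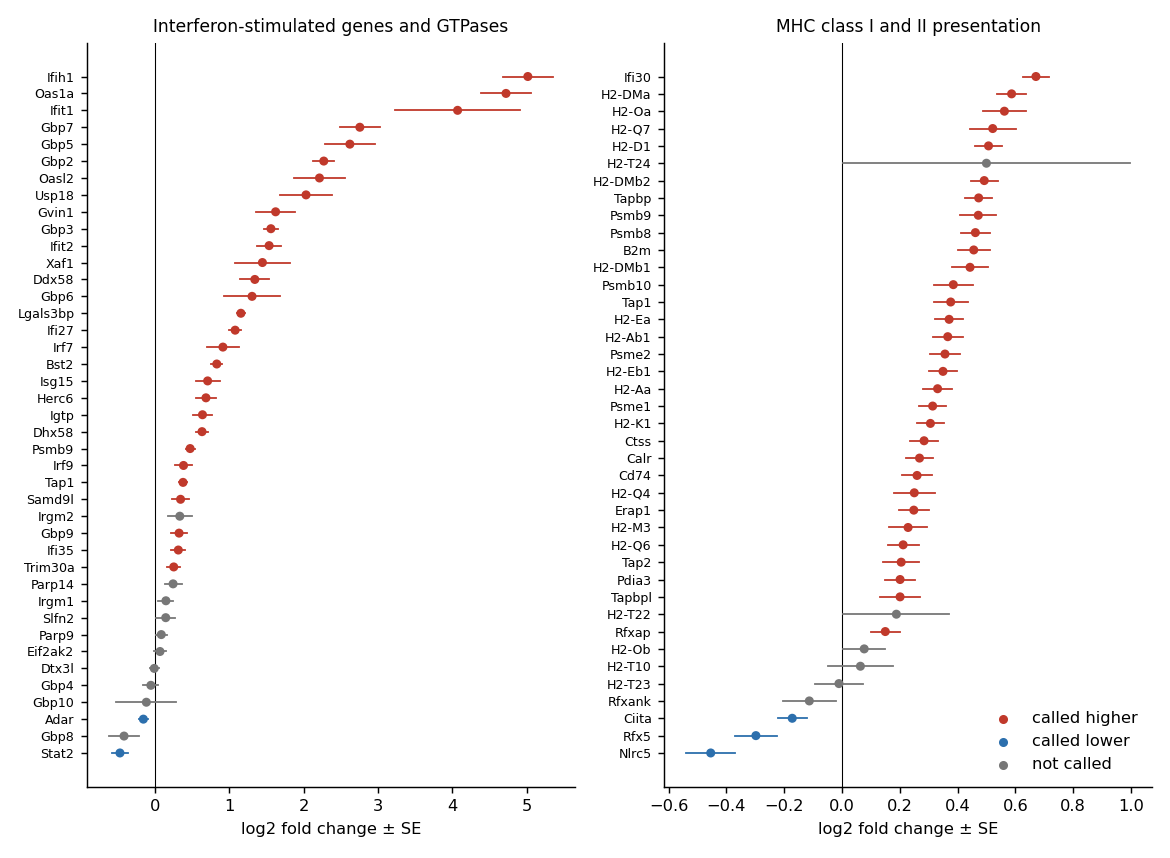
Log2 fold change with its SE (horizontal bars) of valemetostat over DMSO for interferon-stimulated and GTPase genes (left) and MHC class I and II presentation genes (right) reported here, 1 row per gene, n = 3 libraries a group. Red was called higher, blue lower and grey not called. Ifih1 at 5.02 and Oas1a at 4.72 lead the left panel, while the right panel stays under 0.7 in red and ends with Nlrc5 at -0.45.

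The interferon-stimulated response element, the site bound by complexes of STAT2 and IRF9, was searched on both strands as GAAA, any 2 bases and GAAA again, which reads TTTC, any 2 bases and TTTC on the other strand. This motif occurred in 3.44% of all 32851 windows and 3.01% of those of tested genes. It occurred in 13 of 27 windows (48.1%) of interferon-stimulated and GTPase genes called higher and in 4 of 9 windows (44.4%) of those not called higher. These windows belong to 23 of 30 genes called higher and 7 of 12 not called higher, and windows of 1 gene were counted separately. The 2 shares were alike, but so few windows cannot decide whether the letters separate the genes that rose from the others. Stat2 itself, which fell, has the motif, as do Irgm1, Irgm2 and Eif2ak2, which were not called. For 5 of the genes that rose, the stretch before the start is printed on the strand of the gene with matches in capitals, chosen for how the copies are arranged. Gbp2 (chr3:142620592-142620625, plus strand) has 1 copy, Gbp3 (chr3:142559987-142560026, plus), Isg15 (chr4:156200863-156200908, minus) and Oas1a (chr5:120907526-120907557, minus) have overlapping copies, and Ifit1 (chr19:34640773-34640825, plus) has 2 apart.
Gbp2: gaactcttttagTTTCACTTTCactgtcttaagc
Gbp3: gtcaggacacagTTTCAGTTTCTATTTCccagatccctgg
Isg15: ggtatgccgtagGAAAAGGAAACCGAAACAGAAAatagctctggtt
Oas1a: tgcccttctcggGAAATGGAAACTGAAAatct
Ifit1: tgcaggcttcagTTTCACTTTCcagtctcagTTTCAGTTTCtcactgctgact

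Most antigen presentation genes rose by small steps. Of 24 tested MHC class I genes 19 were called higher (79.2%, against 20.4%) and 1 lower, with 0 at 2-fold and a median of 0.29. H2-D1, a class I heavy chain, was at 458, 441 and 466 CPM in DMSO and 629, 663 and 648 CPM with valemetostat, a log2 change of 0.51 ± 0.05. B2m, the shared light chain, went from 435 ± 43.2 to 597 ± 4.89 CPM, Tapbp, which loads peptides, from 155 ± 1.56 to 216 ± 6.08 CPM and Psmb8, an immunoproteasome subunit, from 123.8 to 170.6 CPM (SD, n = 3 each). The member that fell was Nlrc5, the transactivator of class I genes, at 22.7, 23.6 and 22.04 CPM in DMSO and 17.0, 16.4 and 16.4 CPM with valemetostat. H2-T23, H2-T22, H2-T10 and H2-T24, non-classical heavy chains, were not called. On log2(TPM + 1) values 9 members were called higher and the median was 0.17. Class I heavy chains are similar in sequence, so counts of single members are uncertain.

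Of 16 tested class II genes 12 were called higher (75%, against 20.4% of all genes tested) and 2 lower (12.5%, against 18.3%). Their median of 0.34 went to 0.20 with the length and GC offset. Ifi30, the lysosomal reductase that opens disulfides of antigens, was at 263, 265 and 274 CPM in DMSO and 420.3, 427 and 429.9 CPM with valemetostat, a log2 change of 0.67 ± 0.04. H2-DMa, which edits the peptides, rose by 0.59 ± 0.05, and H2-Oa, which restrains that editing, rose by 0.56. The chains H2-Aa, H2-Ab1, H2-Eb1 and H2-Ea rose by 0.33 to 0.37 and the invariant chain Cd74 by 0.26 ± 0.05. The transactivator Ciita fell by 0.17 ± 0.05 and Rfx5, a factor of the same promoters, fell by 0.30 ± 0.07. H2-Ob and Rfxank were not called.

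Most tested enzymes that place activating marks were called lower. Of 16 tested H3K4 and H3K36 methyltransferase genes 12 were called lower (75%, against 18.3%) and 0 higher, with a median of -0.37. Kmt2a, which methylates H3K4 and is known as MLL1, was at 112, 111 and 96.0 CPM in DMSO and 60.8, 50.9 and 57.3 CPM with valemetostat, a log2 change of -0.92 ± 0.07 (edgeR adjusted p = 1.21e-10). Kmt2d changed by -0.73 ± 0.09, Ash1l by -0.66 ± 0.07 and Setd2, the H3K36 trimethylase, by -0.53 ± 0.06. The core subunits Wdr5, Ash2l, Dpy30 and Men1 were not called, at -0.06 to 0.10. Of 12 H3K27 demethylase and acetylation genes 7 were called lower, among them the acetyltransferases Ep300 (-0.36) and Crebbp (-0.35) and the readers Brd2 (-0.29) and Brd3 (-0.27). The deacetylase Hdac2 was the 1 called higher, at 0.45 ± 0.05. In the SWI/SNF remodeller 11 of 22 were called lower, led by Arid1a (-0.38), and Smarcd3 was called higher at 0.95. Of 14 DNA methylation genes 7 were called lower, among them Tet3 (-0.41), Tet2 (-0.40) and Zbtb38 (-0.56), and Dnmt3l, a cofactor of de novo methylation, rose from 2.61 ± 0.392 to 5.17 ± 0.0895 CPM.

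These transcripts are long, and small changes moved with transcript length. Over 8875 genes of at least 3 log2 CPM, Spearman's rho of the log2 difference with length was -0.41 as a description across genes. This set held genes of known length and left out changes of 2-fold or more, here and for the single libraries. In single libraries the rho of the deviation from the mean was 0.28, 0.52 and 0.16 in DMSO 1, 2 and 3 and -0.31, -0.46 and -0.27 in valemetostat 1, 2 and 3. When tested genes were split into 5 equal classes by length, the shortest class, with a median of 973 nt, had 28.4% called higher and 4.24% lower. The longest class, with a median of 5553 nt, had 14.6% called higher and 40.4% lower. Rises of at least 2-fold did not follow that order and made up 4.41%, 4.49%, 4.82%, 4.73% and 6.29% from the shortest to the longest class. The H3K4 and H3K36 list has a median length of 6563 nt, against 2597 nt over all genes tested. With the length and GC offset 11 of its 16 members were called lower and its median was -0.23, with Kmt2a at -0.55, Ash1l at -0.39 and Setd2 at -0.34. How much of the remaining differences goes with RNA quality or library preparation was not tested.

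**Figure D4:**
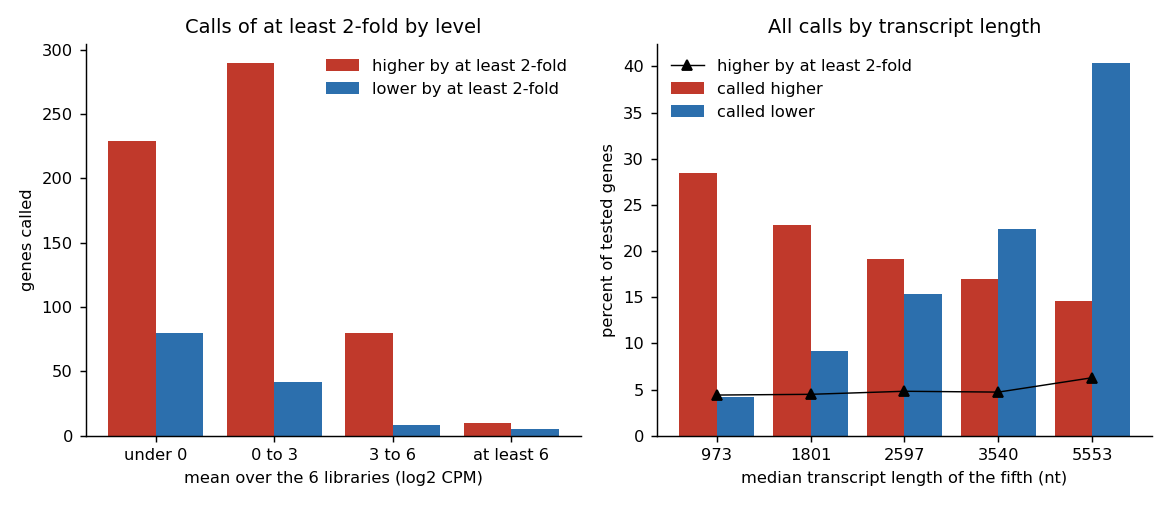
Left, genes called higher (red) or lower (blue) by at least 2-fold in 4 classes of mean level over the 6 libraries, in log2 CPM. Right, percent of tested genes called higher or lower in 5 equal classes of transcript length, each labelled by its median in nt, with the percent that rose at least 2-fold as triangles. Calls go from 28.4% higher and 4.24% lower in the shortest class to 14.6% and 40.4% in the longest, while the triangles stay between 4.41% and 6.29%.

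The B cell markers stayed abundant, and several regulators of the lineage changed. Of 20 tested B cell transcription factors 9 were called lower (45.0%, against 18.3%) and 2 higher. Bach2, a repressor that delays plasma cell differentiation, was at 18.7, 16.5 and 16.2 CPM in DMSO and 37.0, 39.6 and 41.8 CPM with valemetostat, a log2 change of 1.20 ± 0.08. Irf8, a germinal centre factor, fell from 110.7 ± 2.17 to 61.8 ± 6.89 CPM, a log2 change of -0.84 ± 0.06. Zeb2 changed by -0.91 ± 0.07, Mef2c by -0.46 ± 0.05, Ikzf3 by -0.36 and Irf4 by -0.30. The founders of the lineage differed, with Pax5 called lower at -0.21 and Ebf1, at -0.07, not called. Prdm1, which drives plasma cell differentiation, stood at 8.99, 9.18 and 8.19 CPM in DMSO and 7.43, 7.39 and 9.05 CPM with valemetostat, which overlap. Bcl6 is listed at 0 in all 6 libraries. Of 15 tested plasma cell genes 6 were called higher (40%), such as Cd28 (0.57), and 3 lower (20%), such as Tent5c (-0.39) and Jchain (-0.21).

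Receptor genes moved in both directions. Here and below, shares in brackets stand beside 20.4% called higher and 18.3% called lower over all genes tested. Of 28 tested genes of B cell receptor signalling 3 were called higher (10.7%) and 8 lower (28.6%). Cd79b, a signalling chain of the receptor, was at 102, 101 and 118 CPM in DMSO and 153, 163 and 170.4 CPM with valemetostat, a log2 change of 0.60 ± 0.06, and Cd79a rose by 0.22. The kinases Fyn (-0.46) and Blk (-0.19) and the exchange factor Rasgrp3 (-0.30) were called lower. Among 17 inhibitory receptor genes 5 were called higher (29.4%), with Ctla4, which competes for CD28 ligands, at 14.9 and 28.3 CPM, Fcgr2b at 5.80 and 9.03 CPM and Ceacam1 at 9.85 and 14.9 CPM. Lilrb4a and Btla (-0.44) were called lower. Of 17 costimulatory genes 7 were called higher (41.2%), with Tnfsf4, the ligand of OX40, at 1.38 ± 0.19 and Vsir at 1.07 ± 0.12, and 1 lower (Cd80, -0.26).

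Heavy chain genes were measured in cells stimulated to switch class. Ighm, the IgM heavy chain, rose from 1786 ± 142 to 2172 ± 56.6 CPM, a log2 change of 0.28 ± 0.05. Igha, which encodes the heavy chain of IgA, stood at 126, 123 and 137 CPM in DMSO and 122, 125 and 129 CPM with valemetostat, which overlap (log2 difference -0.04 ± 0.05). Ighg2b rose by 1.25 ± 0.18 from 3.33 CPM, and the other gamma chain genes Ighg1, Ighg2c and Ighg3 were not called. Counts over constant region genes do not separate germline from switched transcripts. Ung, which removes uracil from DNA, was called lower at -0.26 and Pms2, a mismatch repair gene, at -0.25. Ung did not pass on the deposited log2 scale (limma-trend adjusted p = 0.0546). Of 24 elongation and exosome factors 4 were called lower (16.7%, near the share of all genes), with Supt6 at -0.36, and 1 higher, Exosc4 at 0.28, a call lost without DMSO 2. Cdc73, at -0.25, stood at 0.08 with the length and GC offset (edgeR adjusted p = 0.178).

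Genes of the stimulating pathways also differed between the groups. Of 22 tested IL-4 and STAT6 response genes 14 were called higher (63.6%) and 2 lower. Fcer2a, the low-affinity IgE receptor CD23, was at 106, 111 and 113 CPM in DMSO and 265, 259 and 303 CPM with valemetostat, a log2 change of 1.32 ± 0.06. Cish, a feedback inhibitor of cytokine signals, was at 13.04 ± 0.687 and 31.2 ± 2.48 CPM (1.26 ± 0.09), and the chemokines Ccl22 and Ccl17 rose by 0.43 ± 0.05 and 2.36 ± 0.48. Stat6, Jak1 and Jak3 were not called, and Bhlhe41 (-0.65) and Cdk6 (-0.60) were called lower. In the TGF-β list 5 of 22 were called higher (22.7%) and 7 lower (31.8%). The type I receptor gene Tgfbr1 rose by 0.81 ± 0.05, from 105 to 185 CPM, and the type II receptor gene Tgfbr2 fell by 0.48 ± 0.05, from 125 to 89.7 CPM. Tgfbr3, the co-receptor betaglycan, had 1 DMSO count and a ratio of 82.1 (14.3 to 3290), and it passed the count filter through its valemetostat libraries alone. The feedback inhibitors Smad7 (-0.44) and Skil (-0.34) were called lower, and Runx2 was called higher at 0.81 but not on the deposited log2 scale (limma-trend adjusted p = 0.0555).

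For NF-kB and CD40 signalling 6 of 26 were called higher (23.1%) and 7 lower (26.9%), near the shares of all genes. Single members called were the inhibitor genes Nfkbia (0.53) and Bcl3 (0.56) and the kinase genes Chuk (-0.60) and Ikbke (-0.62). Of 17 AP-1, EGR and NR4A genes 7 were called higher (41.2%), with Nab1, Batf (0.37) and Jun (0.42), and 3 lower (17.6%). Without DMSO 3 the number higher was 4, and without DMSO 2 or valemetostat 1 the number lower was 1. Of 16 tested RGS and G protein genes 9 were called higher (56.2%) and 3 lower (18.8%). Gna15, a Gq class subunit, was at 6.58, 5.24 and 6.35 CPM in DMSO and 15.7, 17.9 and 19.9 CPM with valemetostat (1.55 ± 0.12). Gnaz, a Gi class subunit, fell from 51.6 ± 3.80 to 25.7 ± 1.90 CPM (-1.01 ± 0.07). Rgs16, Rgs10 and Rgs2 rose by 2.33, 1.26 and 1.08, and Rgs13 and Rgs1 were called lower at -0.52 and -0.27. Ahr, a receptor of tryptophan products and pollutants, was at 57.5, 61.9 and 60.2 CPM in DMSO and 112, 116 and 129 CPM with valemetostat (0.99 ± 0.06). Its target Ahrr, a repressor of the receptor, rose from 3.19 ± 0.272 to 5.08 ± 0.561 CPM (0.67 ± 0.18), while the targets Cyp1a1 (1.37 and 2.34 CPM), Tiparp and Nqo1 were not called. The Ahrr call was lost on the deposited log2 scale (limma-trend adjusted p = 0.0941). Arnt, the partner of Ahr, was called lower at -0.19 ± 0.06. That call was lost without valemetostat 3 (edgeR adjusted p = 0.0555) and on the deposited log2 scale (0.0704 with limma-trend).

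DNA repair lists differed in how often their members were called lower. In classical end joining, which lacks ligase 4 in these cells, 2 of 12 were called lower (16.7%) and 0 higher, with a median of 0.02, so this list did not stand out from all genes. Prkdc, the DNA-dependent protein kinase, was at 61.6, 70.2 and 66.8 CPM in DMSO and 37.5, 39.7 and 40.3 CPM with valemetostat, a log2 change of -0.76 ± 0.06. Dclre1c, the Artemis nuclease, was called lower at -0.39, a call lost without DMSO 1, DMSO 2, valemetostat 2 or valemetostat 3 (edgeR adjusted p = 0.0665 to 0.201). In alternative end joining, the route that remains, 7 of 15 were called lower (46.7%) and 0 higher. The number lower was 5 without DMSO 2, valemetostat 2 or valemetostat 3 and with the replicate number as a term. It was 9 without DMSO 1 and 10 with the length and GC offset. Polq, the polymerase of that route, was at 45.9, 48.5 and 44.9 CPM in DMSO and 28.4, 27.2 and 28.0 CPM with valemetostat, a log2 change of -0.74 ± 0.07. Wrn (-0.32), Xrcc1 (-0.27) and Rad50 (-0.25) were lower by less, and Lig1, Fen1 and Nbn were not called.

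In the 53BP1 and shieldin list 6 of 16 were called lower (37.5%) and 2 higher, with Mdc1 at -0.36, Paxip1 at -0.33 and Trp53bp1 at -0.33. Without DMSO 2 or valemetostat 2 the number lower was 3. With the length and GC offset 3 were called lower, and Trp53bp1 stood at -0.11 (edgeR adjusted p = 0.0506). The 3 shieldin genes tested, Shld1, Shld2 and Shld3, were not called. In homologous recombination 10 of 29 were called lower (34.5%) and 3 higher (10.3%), with Brca2 going from 58.4 ± 1.65 to 35.0 ± 1.07 CPM (-0.74 ± 0.06) and Brca1 at -0.42. Checkpoint genes had 8 of 17 called lower (47.1%) and 0 higher, among them Atm (-0.40) and Timeless (-0.38). Several of these transcripts are long, and with the length and GC offset Prkdc stood at -0.45, Polq at -0.56 and Brca2 at -0.48, each still called lower.

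Proliferation genes were mixed. Of 38 tested cell cycle and replication genes 13 were called lower (34.2%) and 7 higher (18.4%), with 4 higher without valemetostat 2. Mki67, a marker of dividing cells, was at 346, 374 and 362 CPM in DMSO and 235, 235 and 241 CPM with valemetostat (-0.61 ± 0.05), and its value with the offset was -0.37. Cdk1 (0.26) and Ccna2 (0.16), needed for mitosis, were called higher, Mcm4, Mcm5 and Mcm6 of the replicative helicase lower (-0.21 to -0.17), and Top2a, Ccnb1 and Plk1 were not called. E2f8, a repressive E2F factor, rose by 0.75 ± 0.07. The D cyclins Ccnd2 (0.73 ± 0.05) and Ccnd1 (0.38) were called higher and Cdk6 was called lower, from 280.4 to 185 CPM. Cdkn1a, the p21 inhibitor, was at 3.28, 3.07 and 3.25 CPM in DMSO and 3.83, 4.22 and 3.71 CPM with valemetostat, which do not overlap but were not called (log2 difference 0.29 ± 0.19, edgeR adjusted p = 0.233). Cdkn2a, a common Polycomb target, is listed at 0 in all 6 libraries. Myc fell from 666 ± 24.6 to 580.2 ± 13.7 CPM (-0.20 ± 0.05), and 6 of 11 genes of its network were called lower (54.5%). Bcl2l11, which encodes the death-promoting protein BIM, fell from 96.1 ± 1.47 to 58.3 ± 2.65 CPM (-0.72 ± 0.06), and Bcl2 and Mcl1 were not called. Of 27 tested p53 targets 5 were called higher, with Fas at 0.60, and 5 lower, with Mdm4 at -0.70, and these shares of 18.5% each were near those of all genes.

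Metabolic lists moved by small amounts. Of 32 respiratory chain genes 21 were called higher (65.6%) and 0 lower, with a median of 0.18. Cycs, cytochrome c, rose most, from 105 ± 5.95 to 157 ± 10.4 CPM (0.58 ± 0.06). This list has a median length of 1154 nt, and with the length and GC offset 11 were called higher and 1 lower. Of 30 cholesterol synthesis and SREBP genes 13 were called lower (43.3%) and 4 higher. The members called lower included the synthesis enzymes Lss (-0.36) and Mvd (-0.31) and the feedback gene Insig1 (-0.36 ± 0.06), and 13 members were not called. The 4 called higher were Apoe, the exporters Abca1 (1.53 ± 0.16) and Abcg1 (0.72 ± 0.07) and the LXR gene Nr1h2 (0.24), which act in efflux. Of 23 glycolysis genes 7 were called higher (30.4%), with Pfkm at 0.57, and 1 lower, Pgd at -0.25. On log2(TPM + 1) values 1 was called higher and 3 lower (limma-trend), with a median of 0.03 against 0.12 in the counts. In the unfolded protein and stress response 12 of 26 were called lower (46.2%), with Sel1l at -0.50, Ern1 at -0.45 and Ddit3 at -0.35, and 7 higher (26.9%), among them the chaperones Calr (0.27) and Hsp90b1 (0.14). Without DMSO 2 the number higher was 4, and on log2(TPM + 1) values it was 1.

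**Figure D5:**
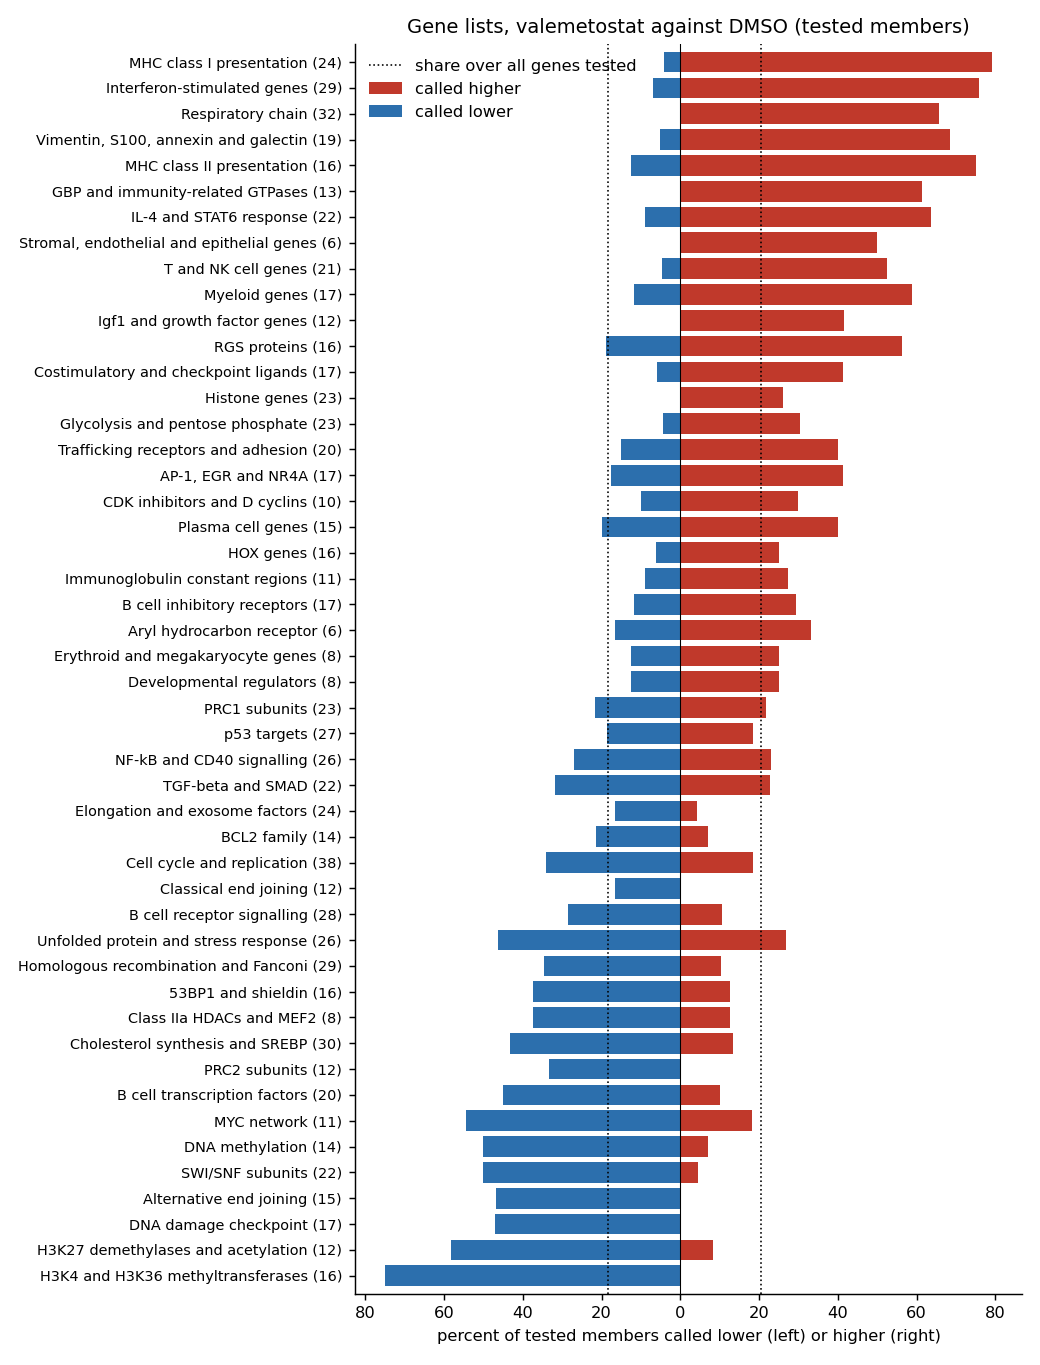
Percent of tested members called lower (blue, left) or higher (red, right) in gene lists reported here with at least 5 tested members, whose number stands in brackets. Dotted lines mark the shares over all 12276 genes, 18.3% lower and 20.4% higher. MHC class I presentation (79.2% higher) and interferon-stimulated genes (75.9%) lie at one end, and H3K4 and H3K36 methyltransferases (75% lower) at the other.

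Genes of other lineages and of the cytoskeleton were also among the rises. Of 19 tested vimentin, S100, annexin and galectin genes 13 were called higher (68.4%) and 1 lower, Lgals4. Besides Vim and Anxa5 these were Lmna, the A-type lamin (16.8 ± 0.669 and 38.8 ± 2.03 CPM), Anxa4 (0.83) and S100a10 (0.77). Of 21 tested T and NK cell genes 11 were called higher (52.4%) and 1 lower. Cd7, a surface protein of T cells, was at 4.88, 5.44 and 4.38 CPM in DMSO and 19.9, 15.9 and 24.8 CPM with valemetostat (2.04 ± 0.14). Lef1 (0.84) and Tcf7 (0.72), factors of the WNT pathway, Il7r (1.65 ± 0.19) and Lat (1.41 ± 0.26) rose as well, while the receptor genes Cd3d, Cd4, Cd8a and Trac stayed under 1 CPM and were not called. Of 17 tested myeloid genes 10 were called higher (58.8%) and 2 lower (11.8%), and without DMSO 1 or valemetostat 1 the number higher was 6. Itgax, an integrin of dendritic cells, went from 0.266 ± 0.188 to 2.05 ± 0.924 CPM (2.90 ± 0.48), and Adgre1, the F4/80 antigen, from 2.80 ± 0.185 to 7.07 ± 0.625 CPM (1.34 ± 0.16). Lyz2 had 3 DMSO counts and a ratio of 51.6 (17.3 to 253), and it passed the count filter through its valemetostat libraries alone. Csf1r, the macrophage growth factor receptor, and Tlr2 were called lower, at -0.46 ± 0.08 and -0.51. On log2(TPM + 1) values 4 myeloid genes were called higher, and the call of Adgre1 was lost (limma-trend adjusted p = 0.0811). The defining markers Cd14, Mpo and Elane of myeloid cells and Cd3e of T cells were at 0 or under 0.2 CPM in both groups.

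Most classical developmental Polycomb targets were at 0, under the filter or not called. Of 39 HOX genes 17 were at 0 in all libraries and 16 passed the filter, of which 4 were called higher (25%) and 1 lower. Hoxa10 was at 3.81, 4.26 and 3.58 CPM in DMSO and 5.73, 5.62 and 6.63 CPM with valemetostat (0.63 ± 0.16) and Hoxd3 fell by 0.69 ± 0.22. Of 41 other developmental regulators 22 were at 0, and of the 8 tested 2 were called higher, Lhx2 and Snai1, and 1 lower. Of 25 germline genes 11 were at 0, and of 3 tested Dnmt3l was called higher and Piwil2 lower. The Lhx2 and Piwil2 calls sat near the threshold and were lost without several single libraries and with the replicate number as a term (edgeR adjusted p = 0.0521 and 0.0537).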

How the data were processed

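Poly(A) RNA of stimulated Ligase4 knockout CH12F3 cells was sequenced in 150-nt pairs, per the labels' protocols. The authors deposited whole-number counts per gene identifier and a second table of log2 values, which on its values is log2(TPM + 1). The submitters' processing notes name the mouse build mm9, and the aligner, counter, annotation and strand setting are not stated in the labels. Library totals and the floor of 3 counts are given in the report and cover counting error only.

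From the counts, genes were kept with filterByExpr (minimum count 10, minimum total 15), scaled by TMM and tested in edgeR 4.0.16 (R 4.3.3) with the robust quasi-likelihood F test on the 3 DMSO and 3 valemetostat libraries, with Benjamini-Hochberg adjustment over all genes tested and a threshold of 0.05. Errors of log2 changes (SE) were worked back from that test, as the absolute log2 change over the square root of F. For large changes from few counts they can be smaller than the counting error. Intervals of ratios are exact at 95%. Alternatives were DESeq2 1.42.0, other scalings and filters, limma 3.58.1 (limma-trend) on the deposited log2 values, the replicate number as a term, an offset for transcript length and GC content (spline with 5 df, lengths from GENCODE M21, which matched 99.79% of tested genes), and leaving out each of the 6 libraries. The code was tested on simulated data. Same-numbered libraries did not deviate together (correlations -0.24, -0.23 and -0.11), so numbers were not used as pairs. Members of the 51 gene lists, and the lists themselves, were chosen with earlier results of these data known. Counts of list members are descriptions with no list test. Members below the filter level in one group could enter these counts through the other group alone.

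Genes were named by rule: a fixed set around EZH2, switching and the cell cycle; the 10 largest changes in each direction above 1 log2 CPM and the 8 largest above 6 log2 CPM, with groups not overlapping; up to 3 called members per list with the smallest p; and the 10 most abundant switched-on genes. Other genes, including members that went against their list, neighbours and the printed promoters, were chosen after their values were seen. Tazemetostat libraries were left out because the comparison is between the other 2 groups. Overlapping and antisense genes cannot be separated without the strand setting. Some genes and gene lists are not reported here.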

Additional observations from a re-analysis of the deposited data

How the results depend on the processing

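The count of 4752 called genes stayed between 3841 and 4940 in 13 of the 14 alternatives: 4711 with DESeq2, 4258 (53.4% higher) with the replicate block, and 3841 to 4810 with single libraries left out. On deposited log2(TPM + 1) values limma-trend called 2880 genes, of which 1060 were higher, 177 higher by at least 2-fold and 26 lower by at least 2-fold. With library totals in place of TMM 47.3% of calls were higher, and with the length and GC offset 48.3%, so the small majority of rises turned under both. Requiring 1 CPM in 3 libraries left 54 genes lower by at least 2-fold. Switched-on genes numbered 33 with at least 20 counts in the higher group and 23 with 0 counts in the other, and switched-off genes numbered 4 and 1. Leaving out single libraries gave 80 to 97 switched on and 14 to 22 switched off, since fewer libraries must pass. On log2(TPM + 1) values fewer list members were called higher, 9 of 24 for MHC class I, 8 of 32 for the respiratory chain, 9 of 22 for IL-4 response, 5 of 16 for RGS genes and 1 of 23 for glycolysis, and alternative end joining had 10 of 15 called lower. Of 190 tested named genes 30 changed call or direction in 61 of 2656 values. Of these 4 reversed, among them Mga (0.01) and Cdc73 (0.08) with the offset and H3f3b (-0.02) on log2(TPM + 1), and the cause was not tested. The replicate block changed the calls of Lhx2, Piwil2, Gata1 and Bcl2a1d among named genes. Depth limits genes under 0.0643 to 0.088 CPM.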

Other observations

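Trafficking genes, which guide lymphocytes to and within lymphoid organs, were higher in part: of 20 tested, 8 were called higher (40%, against 20.4% of all genes) and 3 lower (15%, against 18.3%). Without valemetostat 2 the number lower was 0, and on log2(TPM + 1) values 4 were higher and 1 lower (limma-trend). Selplg, the selectin ligand PSGL-1, rose from 60.02 to 99.98 CPM (log2 change 0.74 ± 0.06) and Gpr183, the oxysterol receptor EBI2, from 41.7 to 61.5 CPM (0.56 ± 0.07). Ccr7, the receptor that leads cells to the T zone, rose by 0.32 ± 0.05 and Cxcr5, which leads them to follicles, by 0.19 ± 0.05. The integrin genes parted, with Itgb2 called higher at 0.29 and its partner Itgal lower at -0.18.

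Of 23 tested histone genes 6 were called higher (26.1%, near the 20.4% of all genes) and 0 lower, among them H2bc4 (0.32) and H3f3b (0.15). The number higher was 2 without DMSO 2 and 3 without valemetostat 2 or valemetostat 3, and on log2(TPM + 1) values 1 was higher and 1 lower (limma-trend). Replication-dependent histone mRNAs mostly lack the poly(A) tail that the libraries select. Of 8 tested erythroid and megakaryocyte genes Hba-a1, an alpha globin with a near-identical copy, went from 3.03 to 5.28 CPM (0.80 ± 0.17), Gata1 was called higher at 0.99 ± 0.37 and Tfrc, the transferrin receptor, lower at -0.24 ± 0.05. The Gata1 call was lost without DMSO 1, DMSO 3, valemetostat 1 or valemetostat 3 (edgeR adjusted p = 0.0991 to 0.16). Of 6 tested stromal and epithelial genes 3 were called higher (50%, against 20.4% of all genes), Vim, Sparc and Lum, and 0 lower. Lum, a matrix proteoglycan, had 0 counts in DMSO and 0.550 CPM with valemetostat. It therefore entered the count through its valemetostat libraries alone. Sparc missed the threshold when limma-trend was used (adjusted p = 0.109, deposited log2 scale).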
